A study of Mus musculus with 9 samples.

Results

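Splenic B cells of Eµ-TCL1 mice were compared with those of wildtype mice by RNA-sequencing, with 3 libraries per group and each library from 1 mouse. The comparison takes 6 of the 9 libraries of the series, chosen by their labelled transgene: B4376, B4437 and C1594 carry hTCL1 and make up the Eµ-TCL1 group, and Z2754, Z2755 and Z2785 carry none and make up the wildtype group. The other 3 libraries (Z2551, Z2606 and Z2641) come from Eµ-MTCP1 mice of founder line Z36, which carry hMTCP1, and serve here to show which differences from wildtype were also measured directly against a second leukemia model. All mice are labelled C57/BL6NTac, and the study states that both sexes were used. In Eµ-TCL1 mice a VH promoter and the IgH-Eµ enhancer drive human TCL1A in immature and mature B cells, so the transgene is on long before leukemia and each library is a leukemia as it stood at collection. The transgenic mice had significant disease burden, and the wildtype mice were age-matched littermates of the Eµ-MTCP1 colony, with no age given for any of them; colony and transgene therefore cannot be told apart. B cells were isolated from whole spleen with a pan B cell kit, which removes other cells rather than picking out the leukemic ones.

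TCL1A is a small protein without enzyme activity that binds the kinase AKT and promotes its activation, and mice that express it in B cells develop a slowly growing leukemia of CD5+ B cells. This disease is widely used as a model of human chronic lymphocytic leukemia (CLL). CD5+ B cells resemble B1 cells, an innate-like lineage that makes natural antibody of the IgM class, and differ from the follicular and marginal zone B cells that make up most of a normal spleen. A splenic B cell transcriptome of an Eµ-TCL1 mouse is thus compared here with that of a mixed, largely follicular population.

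Reads assigned to genes numbered 6489940 to 8033303 per library in the 6 libraries, and 3 reads in a library, the floor used below, lay under 0.5 counts per 1000000 reads (CPM). Reads carry no molecular identifiers, so floors cover counting error only. Wildtype Z2755 was sequenced on another lane than the other libraries, and its summed level of 9 neutrophil markers was 4974 CPM, against 353 CPM in the lowest wildtype library and 29.8 to 286 CPM in the Eµ-TCL1 libraries. Wildtype Z2754 held 10.8% mitochondrial reads, against 2.91 to 4.57% in the other 5 libraries. Values per library are CPM on TMM-scaled library sizes and are listed for B4376, B4437 and C1594, then Z2754, Z2755 and Z2785, and, where given, Z2551, Z2606 and Z2641. Fold changes are log2 values of Eµ-TCL1 minus wildtype ± SE, and adjusted p-values come from the quasi-likelihood F test of edgeR with Benjamini-Hochberg adjustment over all 11163 tested genes; a gene is called at an adjusted p under 0.05.

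The transgene was examined first. hTCL1A had 39449, 47437 and 26439 reads in the Eµ-TCL1 libraries and 11, 3 and 11 reads in wildtype. Its level was 5457, 5825 and 3702 CPM against 1.36, 0.326 and 1.66 CPM, a fold change of 12.15 ± 0.62 (adjusted p = 1.79e-05). The groups lie far apart, and the labels hold in all 6 libraries. Per length, hTCL1A ranked 2, 1 and 2 among all genes in the 3 Eµ-TCL1 libraries, at 51012, 53525 and 33039 TPM (transcripts per 1000000 transcripts). These ranks rest on short reference entries. The entries with hTCL1A reads are 345, 162 and 141 bases long, and TPM divides reads by length. By CPM, Cd74 lay above the transgene, at 19400, 17552 and 26353 CPM in the same libraries. The mouse genes of the family were silent: Tcl1 and Tcl1b1 to Tcl1b5 had 0 reads in all 9 libraries. Mtcp1 had at most 3 reads in each of the 6 libraries, and human hMTCP1 at most 3. Cmc4, which shares its locus with Mtcp1, lay at 0.968, 1.35 and 1.26 CPM against 2.85, 1.74 and 1.96 CPM (-0.86 ± 0.60, adjusted p = 0.412). In these cells the transgene was the only member of the family at an appreciable level.

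Markers of the B lineage were present in both groups. The summed level of 14 B lineage markers was 27413 to 38783 CPM in Eµ-TCL1 and 33915 to 41041 CPM in wildtype. Of the 14, edgeR called 1 (7.14%, against 9.16% of all genes), Ebf1, which was lower. DESeq2 called 1 higher and 4 lower (8.25% and 6.9% of all genes). At an unadjusted p under 0.05, 2 were higher and 5 lower (13.2% and 11.9% of all genes). Cd79a, a signalling chain of the receptor, lay at 2888, 2429 and 3551 CPM against 3355, 2598 and 3308 CPM (adjusted p = 0.892). The lineage label therefore holds. Other cells contributed reads as well: summed monocyte and macrophage markers were 408 to 1655 CPM against 788 to 1414 CPM, T cell markers 56.1 to 189 CPM against 79.5 to 124 CPM, natural killer cell markers 4.48 to 134 CPM against 44.6 to 82.0 CPM, erythroid markers 25.8 to 76.0 CPM against 50.3 to 191 CPM, and dendritic markers 14.1 to 41.2 CPM against 25.8 to 44.8 CPM, with Clec9a at 0. The platelet gene Ppbp and the endothelial gene Kdr were at 0. Of the 7 neutrophil markers tested, 0 were called by edgeR and 0 by DESeq2. At an unadjusted p under 0.05, 4 were lower, as were 11.9% of all genes, and the median of the 7 was -3.00. In bulk samples such as these, fewer cells of a type and less RNA per cell cannot be told apart.

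Of the 11163 genes, 1023 were called (9.16%): 562 were higher in Eµ-TCL1 (5.03%) and 461 were lower (4.13%). Immunoglobulin genes made up 157 of the calls, 156 of them lower, so that among all other genes the leukemic cells had 561 increases and 305 decreases. The study required an unadjusted p under 0.001 and at least a change of 2 on the log2 scale in either direction; 389 genes met this (3.48%), of which 179 lay higher (1.6%) and 210 lower (1.88%), and of these 179 and 76 were outside the immunoglobulin genes. DESeq2 called 921 genes higher (8.25%) and 770 lower (6.9%). The same fit on the deposited gene counts called 1459 of 14567 genes (10%), 849 higher (5.83%) and 610 lower (4.19%). The median over all tested genes was -0.01. In 3643 of the genes (32.6%) the libraries of both groups did not overlap, and this held for 1016 of the 1023 called genes. The number of calls depends on single mice: it was 515 without wildtype Z2754, 546 without wildtype Z2755 and 656 without Eµ-TCL1 C1594, and 440 of the calls held in each of the 9 fits that left out 1 library. With library sizes as the only scaling, the median of all genes moved to -0.15 and the share of calls that were higher from 54.9% to 42.8%, and without immunoglobulin genes in the fit that share was 65.8%.

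**Figure D1:**
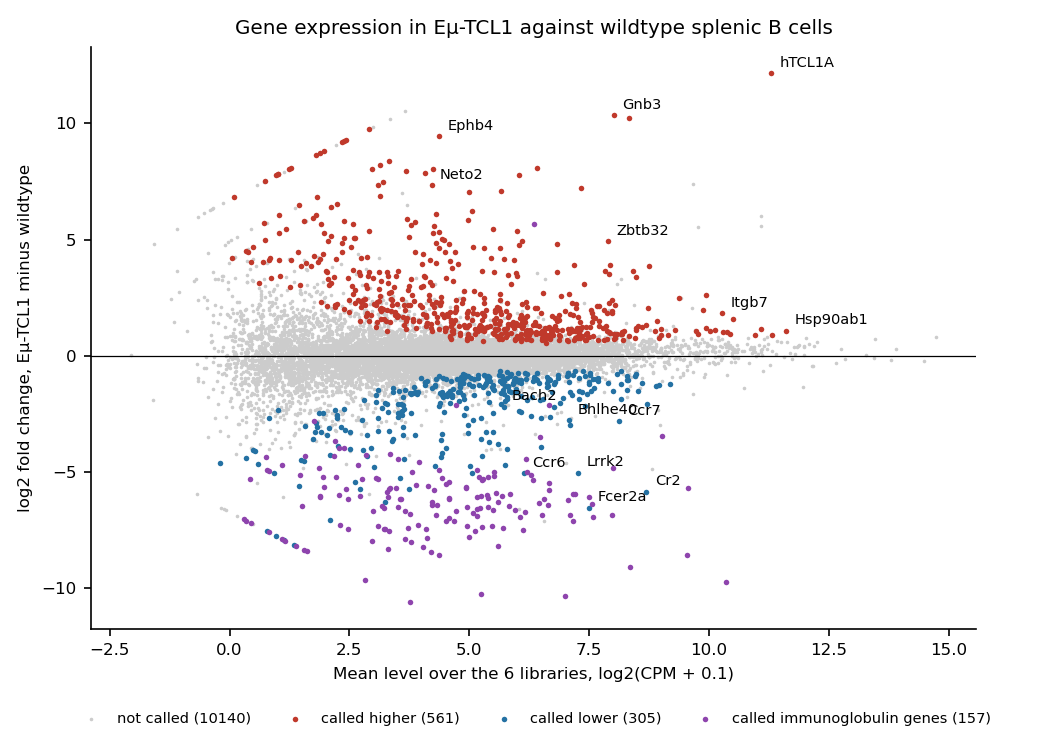
Log2 fold change (Eµ-TCL1 minus wildtype) of each of the 11163 tested genes against its mean level over the 6 libraries, log2(CPM + 0.1); called genes are coloured by direction and immunoglobulin genes shown apart. hTCL1A lies highest at 12.15, B cell genes such as Fcer2a and Cr2 lie below -5, and the called immunoglobulin genes lie almost all below 0; points on the slanted edges are genes with no or few reads in a group, whose fitted values depend on the prior count.

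Among the largest increases beside the transgene were subunits of heterotrimeric G proteins. Gnb3, a beta subunit best known from cone photoreceptors and taste cells, lay at 551, 89.4 and 905 CPM in Eµ-TCL1 and at 0.124, 0.434 and 0.604 CPM in wildtype (10.35 ± 1.15, adjusted p = 0.000526). Gng13, a gamma subunit of taste and retinal cells, lay at 27.9, 15.8 and 69.2 CPM against 0.124, 0 and 0.302 CPM (8.03 ± 0.84, adjusted p = 0.000357). Gng3, a neuronal gamma subunit that was not among the largest increases, lay at 5.67, 1.84 and 2.24 CPM against 0, 0.434 and 0 CPM (adjusted p = 0.0378). All 3 genes were thus at or near the floor in wildtype B cells. Of 34 subunits in the reference 22 were tested. These 3 rose (13.6%, against 5.03% of all genes) and 0 fell, with a median of 0.21 and 10 fitted values below 0. The 3 passed the filter on low counts through the leukemia libraries and could only be called higher, so no conclusion is drawn from their share. Of the 10 regulators of G protein signalling tested, 0 were called by edgeR. At an unadjusted p under 0.05, 0 were higher and 1 lower, and 1 was lower with DESeq2. Gnat1, the rod transducin alpha subunit, was abundant in both groups, at 845, 1166 and 1161 CPM against 865, 981 and 914 CPM (adjusted p = 0.647). Gng3 was not called without B4376, C1594, Z2754, Z2785 or Z2551, with an adjusted p up to 0.122.

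Large increases were also measured in genes of other kinds. Krt8, a keratin of simple epithelia, lay at 399, 80.9 and 1442 CPM against 0.372, 0.217 and 1.06 CPM (10.24 ± 1.97, adjusted p = 0.00947). Avil, which encodes the actin-binding protein advillin, lay at 39.4, 334 and 17.9 CPM against 0.743, 0.543 and 0.453 CPM (7.76 ± 1.36, adjusted p = 0.00599). Within Eµ-TCL1 these genes differed widely between mice, and each mouse lay above all wildtype libraries. Fras1, a protein of basement membranes, lay at 274, 218 and 18.9 CPM against 0, 0 and 2.12 CPM (8.07 ± 1.25, adjusted p = 0.00299). Sparc, a secreted collagen-binding protein, lay at 12.6, 20.3 and 26.5 CPM against 0, 0 and 0.151 CPM, at least 51.5-fold higher. Fstl1, a secreted glycoprotein, had no wildtype reads and lay at 6.92, 16.5 and 8.40 CPM, at least 27.6-fold higher. Olfml2a, at 4.70, 3.81 and 22.3 CPM with no wildtype reads, was at least 26.7-fold higher, or 11.1-fold without C1594, and Sostdc1, an antagonist of BMP and Wnt signalling, at least 66.1-fold. The receptor tyrosine kinase Ephb4 lay at 16.3, 69.0 and 38.5 CPM against 0, 0 and 0.151 CPM, at least 108-fold higher (71.5-fold without B4437). It was the 1 gene called among 5 tested Eph receptors and ephrins (20%, against 9.16% of all genes), with 3 fitted values above 0 and 2 below. Acacb, the mitochondrial form of acetyl-CoA carboxylase, was at least 40.4-fold higher. Mcc lay at 26.1, 0.860 and 17.2 CPM with no wildtype reads, at least 38.4-fold higher, or 23.6-fold without B4376. Togaram2 lay at 29.5, 11.8 and 58.7 CPM against 0, 0.326 and 0 CPM, at least 86.8-fold higher, or 53.8-fold without C1594. Lower bounds set the Eµ-TCL1 mean against the mean floor of 3 reads per wildtype library, and 52 called genes outside the immunoglobulin loci had at most 3 reads in each wildtype library. Krt8, Mcc and Togaram2 were not called without Z2754 or Z2755, with adjusted p up to 0.0651.

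**Figure D2:**
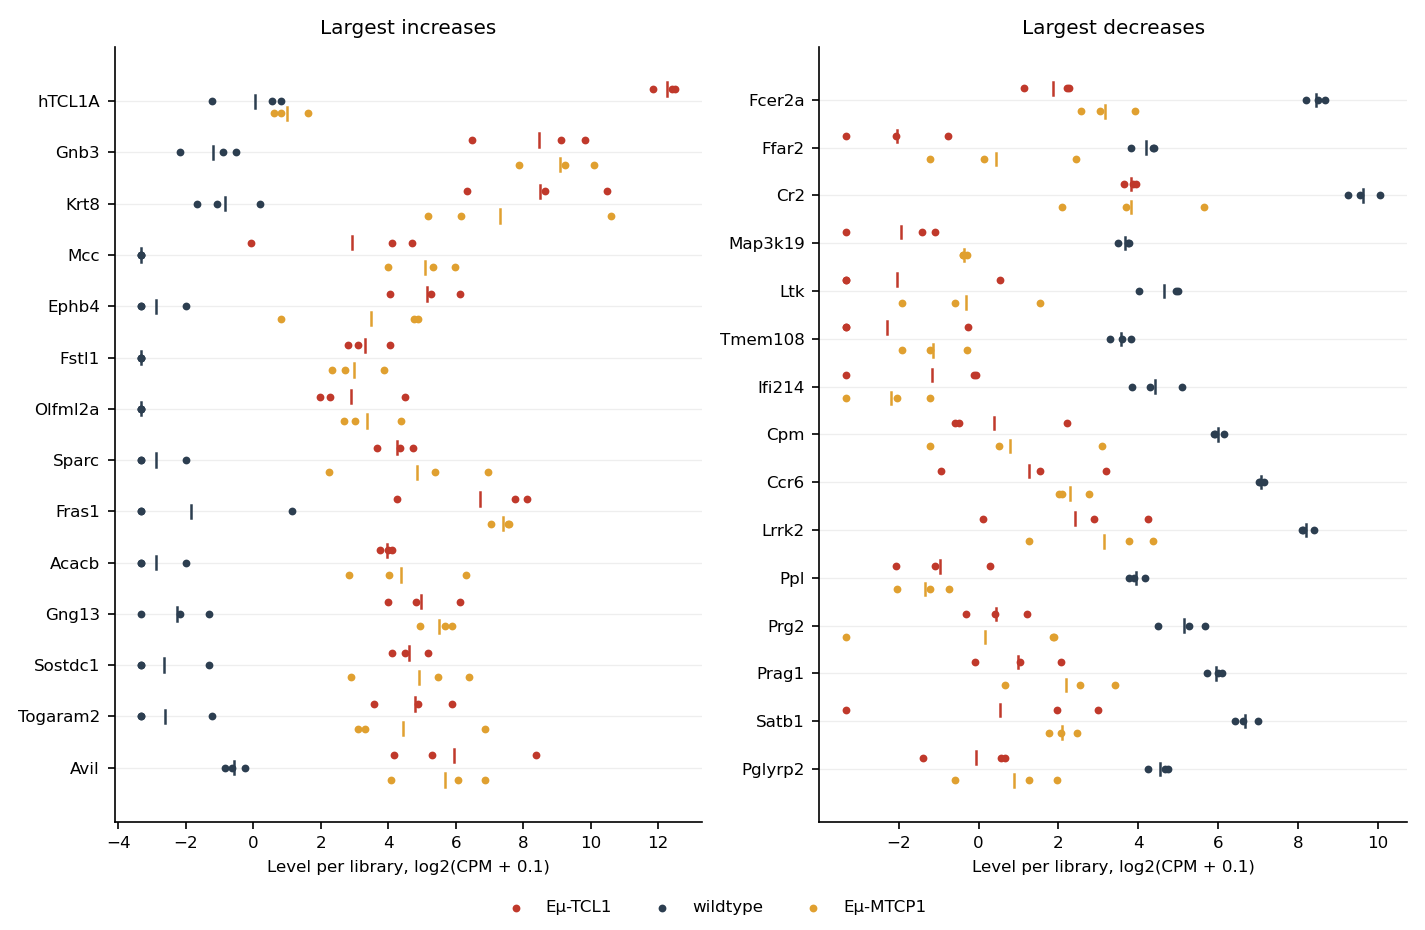
Level of each library, log2(CPM + 0.1), for genes among the largest increases and decreases between Eµ-TCL1 and wildtype, with Eµ-MTCP1 libraries beside them; points are mice and vertical ticks the means of the log2 values. The Eµ-TCL1 and wildtype points do not overlap in any gene shown, which the choice of genes required, and the Eµ-MTCP1 points lie on the same side of the wildtype points for all but hTCL1A.

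The decreases described next are the largest among called genes outside the immunoglobulin loci with a mean of at least 5 CPM over the 6 libraries and no overlap. Fcer2a, which encodes the low-affinity IgE receptor CD23 of follicular B cells, lay at 4.56, 4.67 and 2.10 CPM against 414, 293 and 361 CPM, a fold change of -6.55 ± 0.44 (adjusted p = 8.72e-05) or 94.2-fold lower. Cr2, the complement receptor CD21, lay at 15.4, 14.5 and 12.3 CPM against 1073, 751 and 610 CPM (-5.85 ± 0.77, adjusted p = 0.00122), 57.8-fold lower. Both receptors were low in each of the 3 leukemias. Ccr6, a chemokine receptor, lay at 8.99, 2.82 and 0.420 CPM against 134, 131 and 143 CPM (-5.06 ± 0.68, adjusted p = 0.00137). Lrrk2, a large kinase abundant in B cells, lay at 18.8, 7.37 and 0.980 CPM against 337, 279 and 277 CPM (-5.04 ± 0.89, adjusted p = 0.00616). Satb1, a chromatin organizer of lymphocytes, lay at 7.88, 3.81 and 0 CPM against 97.9, 128 and 85.2 CPM (-4.73 ± 0.79). For Ccr6, Lrrk2 and Satb1 the leukemias differed by larger folds among themselves than the wildtype libraries did, with C1594 the lowest. The other 10 genes of this set were Ffar2, a receptor for short-chain fatty acids (-6.29), Map3k19 (-5.74, at least 31.6-fold lower), the receptor tyrosine kinase Ltk (-5.74), Tmem108 (-5.43), Ifi214 (-5.27), the carboxypeptidase Cpm (-5.07), periplakin Ppl (-4.80), eosinophil major basic protein Prg2 (-4.75), the pseudokinase Prag1 (-4.74) and the peptidoglycan recognition protein Pglyrp2 (-4.46). Of the called decreases outside the immunoglobulin loci, 14 had at most 3 reads in each Eµ-TCL1 library.

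Of 11 genes of B1 cell identity, all tested, 8 were higher (72.7%, against 5.03% of all genes) and 0 lower, with a median of 2.21, and all 11 fitted values were above 0. Zbtb32, a zinc finger repressor of B1 and memory B cells, lay at 453, 317 and 611 CPM against 12.3, 12.4 and 20.2 CPM (4.94 ± 0.35, adjusted p = 0.0001). Cd5, which encodes the surface protein that defines B1a cells and CLL, lay at 34.0, 83.4 and 30.5 CPM against 0.743, 1.41 and 4.83 CPM (4.44 ± 0.66, adjusted p = 0.00238). Arid3a, a DNA-binding protein of fetal-type lymphopoiesis, lay at 227, 381 and 296 CPM against 27.3, 32.6 and 46.7 CPM (3.09 ± 0.27, adjusted p = 0.000194). None of these groups overlap. The remaining 5 that rose were Pstpip2 (3.59), Plscr1 (2.40), the tetraspanin Cd9 (2.21), Ctla4 (2.18) and Bhlhe41 (1.87), a transcription factor required for B1a cells, which lay at 20.6, 14.5 and 15.8 CPM against 3.72, 7.49 and 2.57 CPM.

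Follicular B cells enter germinal centres, and marginal zone B cells respond to antigen in the blood. Of 16 genes of these cells tested, 6 were lower and 1 higher (4.13% and 5.03% of all genes), with a median of -0.92. Beside Fcer2a and Cr2, Ighd, the heavy chain of IgD on naive B cells, lay at 83.0, 126 and 48.2 CPM against 1079, 828 and 933 CPM (-3.46 ± 0.45, adjusted p = 0.00108). Asb2, a ubiquitin ligase subunit, lay at 7.75, 1.60 and 0.140 CPM against 25.3, 45.4 and 46.1 CPM (-3.62 ± 0.84, adjusted p = 0.0232). Dtx1, a Notch target of marginal zone B cells, fell less, from 232, 299 and 309 CPM to 154, 133 and 112 CPM (-1.07 ± 0.23, adjusted p = 0.0174). The 1 member that rose was Plac8, at 488, 677 and 456 CPM against 205, 212 and 281 CPM (1.22 ± 0.22). Of 7 germinal centre genes, 2 were lower (28.6%) and 0 higher: Bcl6, the factor that programs germinal centre B cells, at 17.6, 7.74 and 4.90 CPM against 56.1, 60.7 and 78.1 CPM (-2.69 ± 0.43, adjusted p = 0.00342), and Gcsam, which was near the floor in Eµ-TCL1. Of 9 plasma cell genes, 1 was higher (11.1%), Prdm1, which encodes Blimp-1, the factor of antibody-secreting cells, at 63.5, 41.1 and 74.1 CPM against 12.1, 13.8 and 24.5 CPM (1.83 ± 0.48, adjusted p = 0.0402). Jchain, the joining chain of secreted IgM and IgA, ranged from 31.6 to 1711 CPM in Eµ-TCL1 and from 680 to 1158 CPM in wildtype, with overlapping groups. Dtx1 was not called without C1594, Z2755 or Z2785 (adjusted p up to 0.0751), and Prdm1 not without B4376, C1594, Z2754, Z2755 or Z2551 (up to 0.153). Gcsam was not called without any of B4437, C1594, Z2754, Z2755, Z2785, Z2551 or Z2606 (up to 0.135). For Asb2 and Plac8 the fits without 1 library are not reported here.

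Several constant genes of switched immunoglobulin classes fell. Ighg1, the IgG1 heavy chain, lay at 0.138, 0.368 and 0 CPM against 44.6, 211 and 504 CPM (-10.35 ± 1.19, adjusted p = 0.000631). Ighg2b, the IgG2b heavy chain, lay at 4.43, 1.60 and 5.60 CPM against 887, 1020 and 2552 CPM (-8.59 ± 0.95), and Ighg2c was lower as well (-9.73 ± 1.48). Igha, the IgA heavy chain, lay at 38.3, 28.0 and 19.3 CPM against 923, 1719 and 1778 CPM (-5.69 ± 0.49, adjusted p = 0.000168). These classes were low in each leukemia. Ighg3, the IgG3 heavy chain, was not called, at 113, 85.2 and 140 CPM against 416, 777 and 1501 CPM (-2.99 ± 1.16, adjusted p = 0.139). Ighm, the IgM heavy chain, was not called, at 47020, 16480 and 38961 CPM against 17233, 15519 and 26858 CPM (0.78 ± 0.41, adjusted p = 0.274), nor was the kappa constant gene Igkc (0.30 ± 0.62, adjusted p = 0.807). Among 197 tested immunoglobulin genes, the 1 called higher was the kappa variable gene Igkv6-29, at 124, 354 and 0.840 CPM against 1.36, 2.71 and 5.59 CPM, high in 2 leukemias and below wildtype in C1594. Variable segments share sequence, and reads can be split between near-identical copies.

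**Figure D3:**
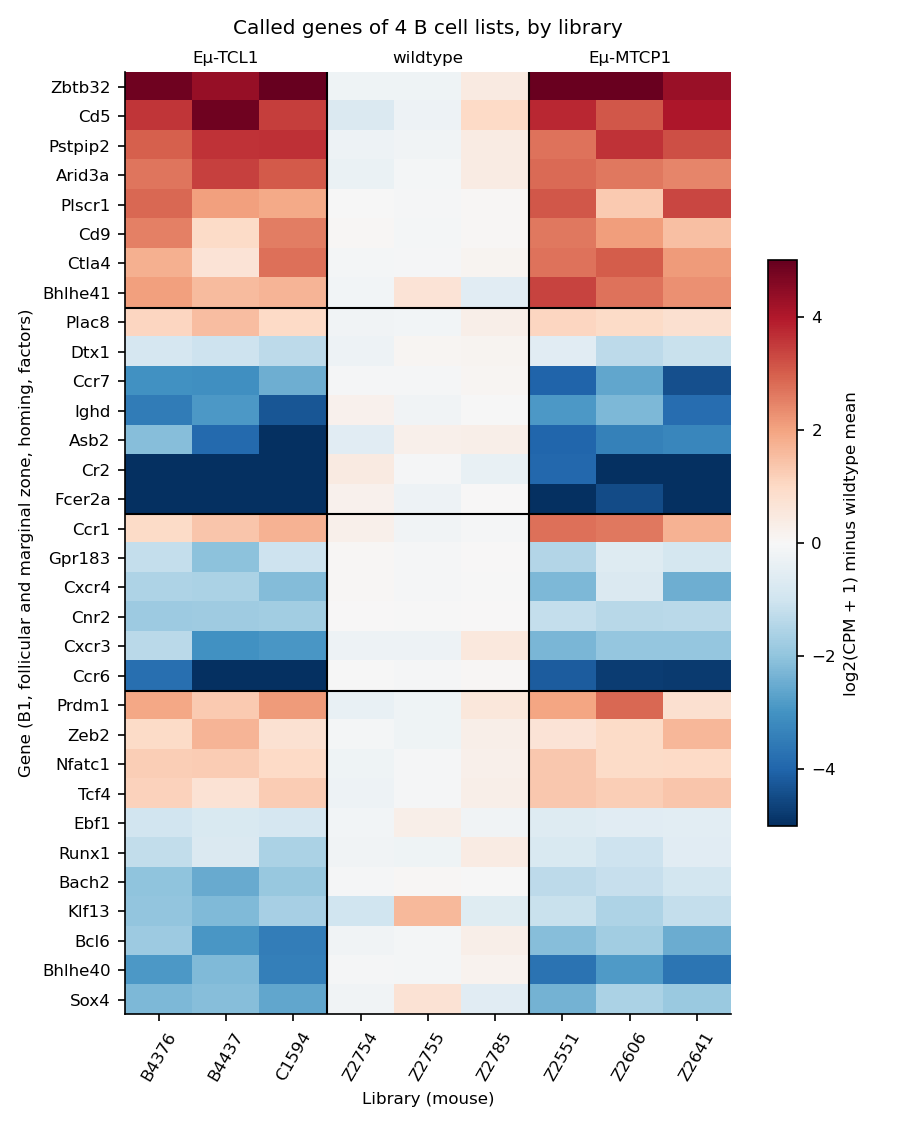
Heat map of the called genes of the B1, follicular and marginal zone, homing receptor and B lineage transcription factor lists; colour is the level of each of the 9 libraries, log2(CPM + 1), minus the wildtype mean. B1 genes are red in all 3 Eµ-TCL1 columns, follicular genes other than Plac8 are blue, and the fitted Eµ-MTCP1 difference from wildtype has the same sign for each gene shown.

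Of 33 B lineage transcription factors tested, 5 rose and 7 fell (36.4% called, against 9.16% of all genes), with a median of 0.04. Bach2, a repressor that holds back plasma cell differentiation, lay at 20.3, 14.1 and 22.1 CPM against 83.4, 89.1 and 85.7 CPM (-2.19 ± 0.21, adjusted p = 0.000257). Bhlhe40, the close relative of Bhlhe41, fell from 223, 222 and 265 CPM to 31.7, 50.8 and 21 CPM (-2.77 ± 0.35, adjusted p = 0.000886), while Bhlhe41 rose. Ebf1, an early factor of B cell commitment, lay at 206, 237 and 221 CPM against 366, 486 and 358 CPM (-0.87 ± 0.18, adjusted p = 0.014). The other factors that fell were Bcl6, Sox4 (-4.54), Klf13 (-2.55) and Runx1 (-1.18). Klf13 lay at 17.2, 111 and 23.1 CPM in wildtype, with Z2755 far above the others. Those that rose beside Prdm1 and Bhlhe41 were Nfatc1, the calcium-regulated factor of B1a cells, at 734, 760 and 633 CPM against 273, 299 and 375 CPM (1.17 ± 0.21, adjusted p = 0.00614), Tcf4 (1.05 ± 0.21) and Zeb2 (1.2 ± 0.32, adjusted p = 0.0417). Ebf1 was not called without B4376, C1594 or Z2755 (adjusted p up to 0.0564). For Sox4, Klf13, Runx1, Tcf4, Zeb2 and Bhlhe41 the fits without 1 library are not reported here.

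Chemokine and lipid receptors guide B cells within the spleen and lymph nodes. Of 16 such homing receptors tested, 6 were lower and 1 higher (4.13% and 5.03% of all genes), with a median of -0.70 and 5 fitted values above 0. Ccr7, which brings lymphocytes to T cell zones, lay at 59.2, 56.9 and 89.9 CPM against 471, 465 and 526 CPM (-2.83 ± 0.44, adjusted p = 0.00292). Cnr2, the cannabinoid receptor that holds B cells in the marginal zone, lay at 12.6, 12.8 and 13.2 CPM against 46.5, 45.3 and 47.1 CPM (-1.85 ± 0.19, adjusted p = 0.000357). Cxcr4, the receptor for CXCL12, lay at 28.2, 27.9 and 18.1 CPM against 89.6, 81.2 and 84.6 CPM (-1.78 ± 0.42, adjusted p = 0.0251). These levels were close together within each group. Ccr6, Cxcr3 (-2.68 ± 0.65) and Gpr183, the oxysterol receptor EBI2 (-1.38 ± 0.28), fell too, and the inflammatory chemokine receptor Ccr1 rose, at 15.1, 20.6 and 26.6 CPM against 8.80, 6.30 and 6.95 CPM (1.5 ± 0.33, adjusted p = 0.0183). Of 8 chemokines tested, 0 were called by edgeR or DESeq2, with 1 lower and 0 higher at an unadjusted p under 0.05. Gpr183 was not called without Z2754 (adjusted p = 0.0515). For Cxcr4, Cxcr3 and Ccr1 the fits without 1 library are not reported here.

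Of 23 integrins and other adhesion receptors tested, 4 rose and 1 fell, with a median of 0.03 and 12 fitted values above 0 against 11 below; over all genes 5.03% were called higher and 4.13% lower. Itgb1, the beta1 integrin chain, lay at 191, 221 and 291 CPM against 62.1, 43.3 and 41.5 CPM (2.26 ± 0.26, adjusted p = 0.00058). Cd44, the hyaluronan receptor, lay at 137, 138 and 145 CPM against 30.4, 39.4 and 46.8 CPM (1.85 ± 0.31, adjusted p = 0.00485). Itgb7, the beta7 chain of gut-homing integrins, was among the most abundant genes that rose, at 1655, 1262 and 2872 CPM against 423, 532 and 667 CPM (1.83 ± 0.36, adjusted p = 0.00985). Cd9 is the fourth. Itgb3, the beta3 chain, fell from 7.19, 8.47 and 6.95 CPM to 1.94, 1.47 and 0.980 CPM (-2.35 ± 0.52, adjusted p = 0.018). Itgb7 was not called without Z2754 (adjusted p = 0.0583). For Itgb3 the fits without 1 library are not reported here.

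Genes that B cells use to address T cells changed in both directions. Of 19 costimulatory and checkpoint molecules tested, 4 rose and 2 fell (5.03% and 4.13% of all genes), with a median of 0.77. Pdcd1lg2, which encodes the PD-1 ligand PD-L2, lay at 53.1, 24.4 and 59.8 CPM against 0.991, 1.30 and 2.72 CPM (4.79 ± 0.48, adjusted p = 0.000306), 27.4-fold higher. Cd274, which encodes the other PD-1 ligand, PD-L1, lay at 64.7, 58.6 and 51.4 CPM against 20.1, 31.7 and 21.9 CPM (1.24 ± 0.22, adjusted p = 0.00609). Cd80, a ligand of CD28 and CTLA-4, lay at 27.4, 15.8 and 31.5 CPM against 2.35, 2.39 and 2.87 CPM (3.29 ± 0.32, adjusted p = 0.000257). Both PD-1 ligands and Cd80 were higher in each leukemia. Ctla4, an inhibitory receptor of T cells, rose as well. Icosl, the ligand of the T cell costimulator ICOS, fell from 106, 103 and 102 CPM to 10.8, 3.07 and 5.60 CPM (-4.00 ± 0.42, adjusted p = 0.000357), 16-fold lower. Cd40, the receptor for T cell help, lay at 80.2, 63.5 and 60.9 CPM against 153, 138 and 166 CPM (-1.16 ± 0.29, adjusted p = 0.0351), a call lost without any of the 6 libraries (adjusted p up to 0.114). Of 11 cytokines tested 18.2% were called, against 9.16% of all genes: Il10, the anti-inflammatory product of regulatory and B1 cells, rose, at 26.4, 11.7 and 15.5 CPM against 1.49, 1.95 and 1.51 CPM (3.42 ± 0.47, adjusted p = 0.0016). Tgfb3, at 0.138, 0.246 and 0 CPM against 1.98, 2.06 and 3.63 CPM, was lower (adjusted p = 0.0424) but lost its call without any of the 6 libraries or without Z2551 (up to 0.127).

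The B cell receptor signals through kinases and adaptors, and inhibitory receptors and phosphatases restrain it. Of the 2 lists 12% and 11.8% were called, against 9.16% of all genes. Of 25 activating components tested, 1 rose (Nfatc1) and 2 fell, with a median of -0.22: Vav3, an exchange factor downstream of the receptor, at 1.11, 0.860 and 1.12 CPM against 13.6, 11.8 and 5.29 CPM (-3.30 ± 0.58, adjusted p = 0.00602), and the calcium channel Itpr2 (-1.05 ± 0.27). Of 17 genes listed here as inhibitory, 1 rose and 1 fell, with a median of 0.06. The role of single members, such as Fcrl1, was not tested. Ptpn22, a phosphatase that dampens antigen receptor signals, lay at 411, 327 and 364 CPM against 114, 98.6 and 96.7 CPM (1.83 ± 0.18, adjusted p = 0.000257). Fcrl1, an Fc receptor-like protein of B cells, lay at 92.7, 41.5 and 51.8 CPM against 309, 246 and 272 CPM (-2.15 ± 0.36, adjusted p = 0.00476). Cd22, an inhibitory coreceptor, was at 700, 730 and 567 CPM against 1130, 1283 and 1310 CPM (-0.90 ± 0.25) with an adjusted p of 0.0517. Itpr2 was not called without B4376, C1594, Z2754, Z2755, Z2785 or Z2551 (adjusted p up to 0.123).

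AKT, which TCL1A binds, acts by phosphorylating proteins, and RNA levels do not measure that. Of 27 genes of the PI3K, AKT and mTOR pathway, 1 was called (3.7%, against 9.16% of all genes), Pik3r6, a regulatory subunit of PI3K gamma (1.84 ± 0.46), with a median of 0.00. FOXO factors are proteins that AKT inactivates. Of 16 tested FOXO factors and genes that they are known to activate, 0 rose and 3 fell (18.8%, against 4.13% of all genes), and 15 of the 16 fitted values were below 0, with a median of -0.98. The 3 were Bach2, Ccr7 and Irs2, an adaptor of insulin receptor signalling, at 82.2, 156 and 245 CPM against 518, 900 and 604 CPM (-2.06 ± 0.56, adjusted p = 0.0439). A further 6 were lower at an unadjusted p under 0.05, which 11.9% of all genes were. The homing receptors of this list are also counted above. Pik3r6 was not called without B4376, B4437, Z2754 or Z2785 (adjusted p up to 0.11), and Irs2 not without B4376, B4437, Z2754, Z2755, Z2785 or Z2551 (up to 0.125).

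The calls in other signalling pathways are to be read against the 9.16% of all genes that were called. Of 24 NF-kappaB pathway genes, Cd40 alone was called, with a median of -0.33. Of 17 STAT factors and cytokine suppressors, 3 fell: Stat4, at 2.90, 1.72 and 1.26 CPM against 48.6, 38.2 and 34.1 CPM (-4.35 ± 0.47, adjusted p = 0.00043), Stat2 (-1.14 ± 0.29) and Jak1 (-0.87 ± 0.19). Stat4, which transmits interleukin-12 signals, was thus 20.6-fold lower. Of 12 Notch pathway genes, Dtx1 and Hes1 fell, the latter from 14.4, 36.7 and 6.35 CPM to 1.38, 2.21 and 0.840 CPM (-3.67 ± 0.79, adjusted p = 0.0165). Of 14 Wnt pathway genes, the ligand Wnt10a rose, at 54.1, 15.5 and 178 CPM against 3.84, 3.80 and 5.74 CPM (4.21 ± 0.96, adjusted p = 0.0208), and the coreceptor Lrp5 fell (-4.64 ± 1.11). Lrp5 had at most 3 reads in each Eµ-TCL1 library and was at least 3.76-fold lower. Of 22 Toll-like receptors and adaptors, 2 rose, the adaptor Ticam1 (0.98 ± 0.27) and the TLR4 partner Ly96 (1.43 ± 0.38), and 2 fell, Tlr1 (-1.37 ± 0.37) and Irak3 (-1.68 ± 0.40), an inhibitor of TLR signals. Of 21 immediate early genes, DESeq2 put 1 higher and 6 lower (8.25% and 6.9% of all genes). At an unadjusted p under 0.05, 4 were higher and 6 lower (13.2% and 11.9% of all genes). With edgeR 1 fell, the phosphatase Dusp2 (-2.39 ± 0.51), for which wildtype Z2755 was the highest library at 207 CPM. Apart from Stat4, each of these calls was lost in some fit without 1 library: Dusp2 without C1594 (adjusted p = 0.0626), Hes1 without B4376, C1594 or Z2755 (up to 0.0755), Jak1 without B4376, C1594, Z2754 or Z2755 (up to 0.062), Irak3 without B4437, C1594, Z2754 or Z2755 (up to 0.0871), Stat2 without B4437, C1594 or any wildtype library (up to 0.122), and Wnt10a and Lrp5 without C1594 or any wildtype library, and Lrp5 also without B4376 (up to 0.101 and 0.0974). Tlr1 lost its call without any of the 6 libraries or Z2551 (up to 0.147), Ticam1 without any of the 6 or Z2606 (up to 0.156), and Ly96 without every library but Z2754 (up to 0.136).

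**Figure D4:**
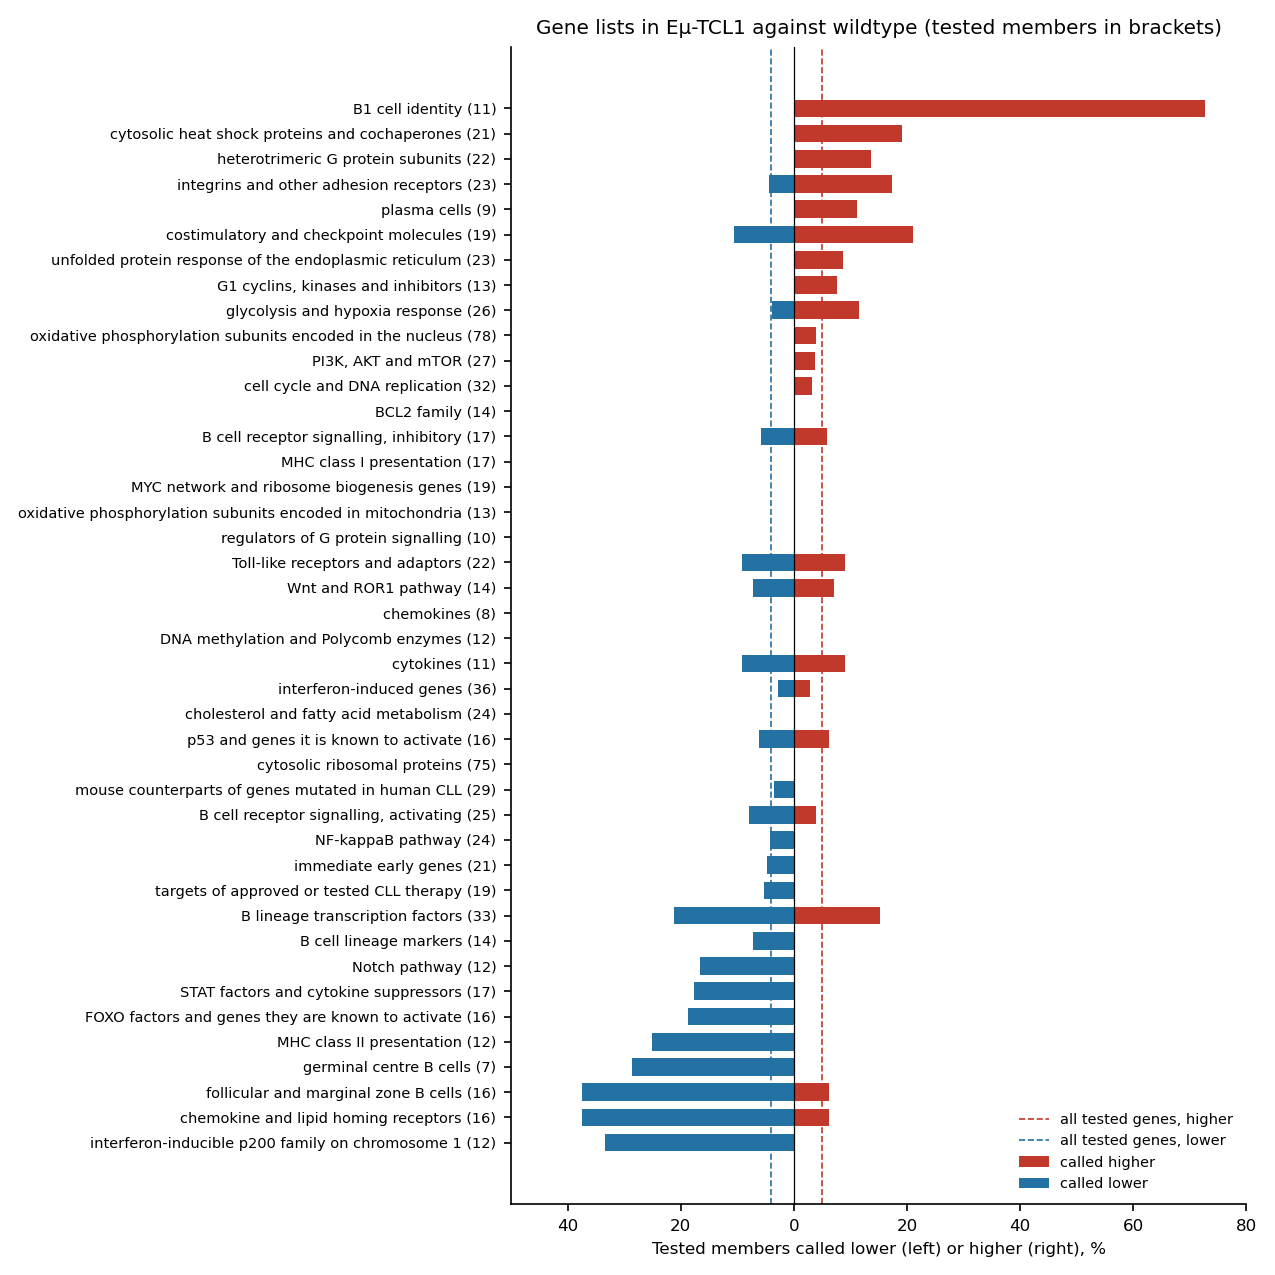
Share of the tested members of each gene list that were called higher (bars to the right) or lower (bars to the left) in Eµ-TCL1, in percent, with the number tested in brackets; dashed lines mark the shares over all tested genes, 5.03% higher and 4.13% lower. The B1 list (8 of 11) stands farthest to the right, and the p200, homing receptor and follicular lists reach farthest to the left.

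Cytosolic chaperones of the heat shock response refold damaged proteins and are induced by the factor HSF1, which binds repeats of the letters GAA facing each other. Of 21 heat shock proteins and cochaperones tested, 4 rose (19%, against 5.03% of all genes) and 0 fell, with a median of 0.23; 8 were higher at an unadjusted p under 0.05, which 13.2% of all genes were. Hsp90ab1, the constitutive HSP90, was among the most abundant genes that rose, at 4212, 4050 and 4362 CPM against 1900, 1993 and 2095 CPM (1.08 ± 0.20, adjusted p = 0.00802). Bag3, a cochaperone of HSP70 in autophagy, lay at 24.6, 19.2 and 28.0 CPM against 2.60, 5.64 and 3.32 CPM (2.62 ± 0.40, adjusted p = 0.00276). Both genes varied little between leukemias. Hspb1, a small heat shock protein, lay at 29.5, 13.3 and 331 CPM against 2.60, 2.17 and 4.38 CPM (5.36 ± 1.40, adjusted p = 0.0389). Hspa1b, an inducible HSP70, lay at 1445, 291 and 684 CPM against 9.79, 139 and 18.4 CPM (3.85 ± 1.05, adjusted p = 0.046). Its copy Hspa1a, at 783, 238 and 419 CPM against 15.9, 116 and 39.1 CPM (3.07 ± 0.88), had an adjusted p of 0.0546; both encode nearly the same protein, so the division of reads between them is uncertain. The HSP70 genes thus differed widely between mice in both groups and Hspb1 among the Eµ-TCL1 libraries, and wildtype Z2755 was the highest wildtype library for the HSP70 genes. Hspa1b was not called without B4376, C1594, Z2754, Z2785, Z2551 or Z2606 (adjusted p up to 0.132), nor Hspb1 without C1594 or any wildtype library (up to 0.163).

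The promoters of Hspa1b, Hspb1 and Bag3 are shown because these members of the heat shock list were called and have an entry. Hsp90ab1, the other called member, has no entry in the promoter table and was not searched. The motif searched was GAANNTTC, in which N is any base; it reads the same on both strands. In RefSeq promoters of the build GRCm38.p6, from 250 bases before to 50 bases after the start site, it occurs in 2582 of 32851 (7.86%), in 647 of 11080 promoters of tested genes (5.84%), and in 11 of 23 promoters of tested members of the heat shock list (47.8%). All 3 called members with an entry hold it, as do 7 of the 14 genes of the list with an entry that were not called. The sequences are printed 5′ to 3′ on the strand of the gene, with the motif in capitals. A match describes the letters in this window and is no evidence of binding in these cells.
Hspa1b, chr17:34959189-34959488, minus strand: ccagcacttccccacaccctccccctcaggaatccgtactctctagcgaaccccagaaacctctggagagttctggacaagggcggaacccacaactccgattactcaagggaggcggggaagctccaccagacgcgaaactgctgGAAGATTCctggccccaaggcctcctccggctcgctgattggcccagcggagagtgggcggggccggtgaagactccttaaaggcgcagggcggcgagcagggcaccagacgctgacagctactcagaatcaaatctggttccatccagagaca
Hspb1, chr5:135887669-135887968, plus strand: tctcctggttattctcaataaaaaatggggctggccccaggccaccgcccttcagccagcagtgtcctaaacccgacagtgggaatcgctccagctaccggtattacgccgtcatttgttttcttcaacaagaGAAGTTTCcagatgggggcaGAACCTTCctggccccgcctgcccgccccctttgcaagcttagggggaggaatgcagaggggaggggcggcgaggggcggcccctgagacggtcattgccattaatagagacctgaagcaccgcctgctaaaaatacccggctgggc
Bag3, chr7:128523333-128523632, plus strand: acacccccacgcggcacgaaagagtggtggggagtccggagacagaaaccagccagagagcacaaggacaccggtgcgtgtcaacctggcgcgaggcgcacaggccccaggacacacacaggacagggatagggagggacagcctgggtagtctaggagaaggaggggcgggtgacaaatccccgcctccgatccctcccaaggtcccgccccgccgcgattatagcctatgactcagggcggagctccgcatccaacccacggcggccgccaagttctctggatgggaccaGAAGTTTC

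The motif begins at base 147 of the Hspa1b promoter, at bases 134 and 154 in Hspb1, and at base 293 in Bag3, where it lies after the start site. Among chaperones of the endoplasmic reticulum and other genes of the unfolded protein response, 2 of 23 rose and 0 fell, with a median of 0.27 and 8.7% called, near the 9.16% of all genes. Creld2 lay at 515, 256 and 399 CPM against 63.9, 113 and 153 CPM (1.83 ± 0.35, adjusted p = 0.00869). Sel1l, an adaptor of protein degradation at the endoplasmic reticulum, lay at 217, 385 and 472 CPM against 80.3, 90.0 and 108 CPM (1.95 ± 0.32, adjusted p = 0.00442). The central chaperone Hspa5 did not pass the test, at 2038, 1660 and 2248 CPM against 2164, 2098 and 1805 CPM (adjusted p = 0.966).

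Growth and survival genes were tested in 5 lists, to be read against the 9.16% of all genes that were called. Of 32 genes of cell cycle and DNA replication, 1 rose (3.12%), Ccne1, which encodes cyclin E1 of the G1 to S transition, at 14.1, 22.1 and 22.1 CPM against 4.96, 9.44 and 4.68 CPM (1.60 ± 0.35, adjusted p = 0.0177); 26 of the 32 fitted values were above 0, with a median of 0.36. Mki67, the proliferation marker, lay at 185, 222 and 175 CPM against 71.0, 105 and 74.0 CPM (1.22 ± 0.45), without overlap but with an adjusted p of 0.123. Of 13 regulators of G1, 1 rose (7.69%), Ccnd2, which encodes cyclin D2, at 256, 175 and 210 CPM against 78.5, 105 and 120 CPM (1.08 ± 0.22, adjusted p = 0.0129). Of 14 genes of the BCL2 family, 0 were called by edgeR or DESeq2, with 1 higher and 1 lower at an unadjusted p under 0.05, and Bcl2 itself lay at 56.4, 55.6 and 63.1 CPM against 48.2, 57.5 and 59.2 CPM (0.09 ± 0.19). Of 19 genes of the MYC network, 0 were called by edgeR and 1 was higher with DESeq2 and at an unadjusted p under 0.05, with a median of 0.01. Of 16 genes of the p53 response 12.5% were called: Phlda3 rose (3.12 ± 0.77) and Gadd45a, a growth arrest gene, fell from 32.0, 31.6 and 34.3 CPM to 4.56, 15.7 and 9.80 CPM (-1.70 ± 0.39, adjusted p = 0.0213). Ccnd2 was not called without Z2754 or Z2755 (adjusted p up to 0.0578), Ccne1 not without B4437, C1594, Z2754 or Z2785 (up to 0.0804), Gadd45a not without C1594 or any wildtype library (up to 0.0713), and Phlda3 not without any Eµ-TCL1 library, Z2754, Z2785 or Z2551 (up to 0.12).

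Metabolic genes were tested next. Of 78 nuclear genes of oxidative phosphorylation, 3 rose and 0 fell, 21 were higher at an unadjusted p under 0.05 (5.03% of all genes were called higher and 13.2% passed that p), and 68 fitted values were above 0, with a median of 0.31. Ndufb9, a subunit of complex I, lay at 187, 256 and 257 CPM against 112, 112 and 133 CPM (0.97 ± 0.20, adjusted p = 0.0149), and Uqcr11 and Atp5g2 rose by 1.10 and 1.01. Of the 13 mitochondrially encoded subunits, 0 were called by edgeR or DESeq2 and 3 were lower at an unadjusted p under 0.05; wildtype Z2754, with the most mitochondrial reads, was their highest library, at 26993 CPM for mt-Co1 against 9133 to 15213 CPM in the other 5. Of 26 genes of glycolysis and hypoxia, 3 rose and 1 fell (15.4% called, against 9.16% of all genes), with a median of 0.17. Adm, the vasodilator peptide adrenomedullin, lay at 63.1, 155 and 441 CPM against 7.68, 5.54 and 10.7 CPM (4.79 ± 0.86, adjusted p = 0.00657). Tpi1, a glycolytic enzyme, lay at 166, 202 and 207 CPM against 72.2, 111 and 90.7 CPM (1.07 ± 0.19, adjusted p = 0.00689), and Pfkfb3, which promotes glycolysis, rose by 1.32 ± 0.26. Bnip3, a mitophagy receptor induced by hypoxia, was lower (-3.07 ± 0.73). Of 24 genes of cholesterol and fatty acid metabolism, 0 were called by edgeR, 3 were higher with DESeq2, and 4 were higher and 1 lower at an unadjusted p under 0.05. Of 75 cytosolic ribosomal proteins, 0 were called by edgeR or DESeq2 and 1 was higher at an unadjusted p under 0.05. Ndufb9 was not called without C1594, Z2754 or Z2755 (adjusted p up to 0.0693), Uqcr11 not without B4437, Z2754 or Z2755 (up to 0.0774), Pfkfb3 not without Z2754 or Z2755 (up to 0.0544), Bnip3 not without B4437, C1594 or any wildtype library (up to 0.101), and Atp5g2 only with B4376 or Z2785 left out (up to 0.155 otherwise).

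Of 12 tested members of the interferon-inducible p200 family, sensors of nucleic acid, 4 fell (33.3%, against 4.13% of all genes) and 0 rose, with a median of -1.14. Ifi214 lay at 0.830, 0.860 and 0 CPM against 34.2, 19.6 and 14.2 CPM (-5.27 ± 0.80, adjusted p = 0.00271), and Ifi209 at 41.4, 32.0 and 19 CPM against 158, 103 and 90.0 CPM (-1.93 ± 0.31, adjusted p = 0.0039). Ifi206 (-2.48 ± 0.57) and Mndal (-1.55 ± 0.37) fell as well. These genes are near copies that lie together on chromosome 1, and reads shared between them make single values uncertain. Of 36 other interferon-induced genes, 1 rose, the GTPase Igtp (1.45 ± 0.38), and 1 fell, Stat2 (5.56% called, against 9.16%). Of 12 genes of MHC class II presentation, 3 fell (25%) and 0 rose, with a median of -0.28. Ciita, the transactivator of these genes, lay at 289, 273 and 311 CPM against 559, 772 and 786 CPM (-1.28 ± 0.23, adjusted p = 0.0063), and the atypical chain H2-Eb2 at 6.92, 8.10 and 6.58 CPM against 21.6, 19.1 and 24.3 CPM (-1.59 ± 0.35). H2-DMb1 was lower by 0.67 ± 0.18 on the log2 scale. Cd74, the invariant chain and one of the most abundant transcripts of B cells, was not called, at 19400, 17552 and 26353 CPM against 21979, 23904 and 28607 CPM (adjusted p = 0.617). Of 17 genes of MHC class I presentation, 0 were called by edgeR, 1 was higher with DESeq2 and 2 were higher at an unadjusted p under 0.05, with 16 fitted values above 0 and a median of 0.35. Mndal was not called without C1594 or Z2754 (adjusted p up to 0.106), Ifi206 not without B4437 or any wildtype library (up to 0.0829), H2-Eb2 not without B4376, C1594, Z2754 or Z2785 (up to 0.0674), Igtp not without B4376, any wildtype library, Z2551 or Z2606 (up to 0.145), and H2-DMb1 not without any of the 6 libraries or Z2551 (up to 0.144).

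Abundant genes changed by smaller factors. Lsp1, an actin-binding protein of leukocytes, lay at 1814, 2028 and 2698 CPM against 716, 681 and 783 CPM (1.58 ± 0.23, adjusted p = 0.0019). Vars, the valyl-tRNA synthetase, lay at 3210, 2372 and 3373 CPM against 1095, 1443 and 1487 CPM (1.15 ± 0.24, adjusted p = 0.0129). The GTPase Rac2, the calcium pump Atp2a3, the membrane protein Serinc3, the B cell antigen Ly6d and the actin gene Actg1 rose by 0.88 to 1.02 on the log2 scale. In the other direction, Ptk2b, the kinase PYK2, lay at 239, 191 and 134 CPM against 494, 549 and 588 CPM (-1.53 ± 0.25, adjusted p = 0.00401). Sipa1, a GTPase activator for Rap1, lay at 340, 385 and 320 CPM against 634, 975 and 839 CPM (-1.23 ± 0.24, adjusted p = 0.0102). Serpinb1a, an inhibitor of neutrophil elastase, was lower (-1.03 ± 0.20), as were the GTPase activators Acap1 (-1.31) and Rasal3 (-1.19) and the sorting nexin Snx2 (-0.79). Of this set Lsp1, Ptk2b, Sipa1 and Serpinb1a were called in all fits with 1 library left out. Vars was not called without C1594 or Z2754 (adjusted p up to 0.0646), Rasal3 not without B4376, C1594 or Z2755 (up to 0.066), Acap1 not without B4376, C1594, Z2755 or Z2785 (up to 0.0735), Snx2 not without B4376, C1594, Z2754 or Z2755 (up to 0.0819), Atp2a3 not without B4437, C1594, Z2754 or Z2755 (up to 0.0937), Serinc3 not without B4376, C1594 or any wildtype library (up to 0.0988), Ly6d not without any Eµ-TCL1 library, Z2754 or Z2755 (up to 0.109), Actg1 likewise and also not without Z2551 (up to 0.137), and Rac2 not without B4437, C1594, any wildtype library or Z2551 (up to 0.145).

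Of 29 tested mouse counterparts of genes mutated in human CLL, 1 was called, against 9.16% of all genes: the chromatin remodeler Chd2, at 93.1, 99.7 and 117 CPM against 207, 176 and 169 CPM (-0.83 ± 0.19, adjusted p = 0.0215), with a median of -0.05. Of 19 targets of CLL therapy, Cd40 alone was called. Of 12 enzymes of DNA methylation and Polycomb, 0 were called by edgeR, 1 was lower with DESeq2, and 1 was higher and 1 lower at an unadjusted p under 0.05. Of 14 monocyte and macrophage markers, 1 rose and 1 fell, 10 fitted values were below 0, and 6 were lower at an unadjusted p under 0.05, with a median of -0.96; DESeq2 called 3 lower. The lysosomal gene Cd68 rose, at 154, 236 and 212 CPM against 36.1, 56.2 and 68.3 CPM (1.91 ± 0.32, adjusted p = 0.00465), while the macrophage genes Csf1r (-0.35 ± 0.58) and Lyz2 (-0.57 ± 0.67) were not called. Spic, a factor of red pulp macrophages (-3.28 ± 0.83), and Flt3, a receptor of dendritic cells and progenitors (-3.06 ± 0.66), fell. Of 5 dendritic markers tested, Flt3 alone was called (20%, against 9.16% of all genes), with 4 fitted values below 0 and 1 above. The latter was Ccr9, at 3.87, 6.39 and 38.5 CPM against 0.743, 0.651 and 1.21 CPM (4.22 ± 1.47, adjusted p = 0.104). DESeq2 called 1 dendritic marker higher and 1 lower. Of the T cell, natural killer cell and erythroid markers tested, 9, 6 and 8, 0 were called by edgeR or DESeq2, with 1 T cell marker higher and 1 erythroid marker lower at an unadjusted p under 0.05. Chd2 was not called without B4376, B4437, Z2754 or Z2755 (adjusted p up to 0.0774), Flt3 not without Z2755 (0.0636), and Spic not without any of the 6 libraries (up to 0.122).

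The direct contrast with Eµ-MTCP1 tests which differences are particular to Eµ-TCL1. Against wildtype, 1059 genes were called in Eµ-MTCP1 (9.49%), 613 higher (5.49%) and 446 lower, with the same wildtype libraries, so agreement between both comparisons is in part built in; 725 genes were called in both, 70.9% of the Eµ-TCL1 calls and 68.5% of the Eµ-MTCP1 calls. Between the models, 4 genes were called (0.0358%): in Eµ-TCL1, hTCL1A and Neto2 lay above Eµ-MTCP1, and Arhgef17 and hMTCP1 lay below it. DESeq2 called 71 genes (0.636%), and 171 had an unadjusted p under 0.01 (1.53%). Neto2, an auxiliary subunit of kainate receptors, was the 1 mouse gene called higher by edgeR in Eµ-TCL1 than in both other groups. It lay at 48.8, 41.4 and 19.9 CPM against 0.619, 0 and 0 CPM in wildtype and 0.328, 0 and 0 CPM in Eµ-MTCP1. Its fold change was 7.34 ± 0.93 over wildtype (adjusted p = 0.000965) and 8.23 ± 1.03 over Eµ-MTCP1 (adjusted p = 0.0262). The direct call was lost without B4376, B4437 or any of the 3 Eµ-MTCP1 libraries (adjusted p up to 0.127). Arhgef17, a guanine nucleotide exchange factor at chr7:100869752-100932107 (GRCm38), was near the floor in both Eµ-TCL1 and wildtype and lay at 45.8, 62.5 and 50.9 CPM in Eµ-MTCP1. The study maps the transgene of founder line Z36 to an intron of Fam168a, in the same region of that chromosome. Whether the insertion site plays a part in the Arhgef17 level was not tested.

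A further 35 genes were called against wildtype, had an unadjusted p under 0.01 in the direct contrast in the same direction, and had Eµ-TCL1 libraries apart from both other groups; none passed the adjusted threshold of the direct contrast with edgeR, while DESeq2 called 19 of the 35 (for Rasal1 and Hspa1b with a direct adjusted p of 0.000133). Bach2 lay lowest in Eµ-TCL1, at 20.3, 14.1 and 22.1 CPM, with 34.5, 38.1 and 44.9 CPM in Eµ-MTCP1 and 83.4, 89.1 and 85.7 CPM in wildtype. Rasal1, a GTPase activator for Ras, lay at 99.0, 72.4 and 116 CPM against 30, 46.2 and 38.5 CPM in wildtype and 39.7, 15.2 and 25.4 CPM in Eµ-MTCP1. Mcoln3, a lysosomal cation channel, lay at 12.4, 25.9 and 16.9 CPM against 5.82, 6.51 and 5.29 CPM and 4.92, 4.69 and 1.65 CPM. Against wildtype, Eµ-MTCP1 differed by -0.52 ± 0.33 for Rasal1 and -0.64 ± 0.45 for Mcoln3 (adjusted p = 0.362 and 0.401). Hspa1b lay at 17.4, 22.9 and 3.14 CPM in Eµ-MTCP1, below all Eµ-TCL1 libraries, and so did Gm20481, at 80.8, 21.5 and 34.7 CPM against 2.46, 2.84 and 0.165 CPM, whose annotated span (chr17:34969912-34972136, GRCm38) lies within that of Hspa1a on the opposite strand. Whether strand was used in the Salmon estimates is not stated, so reads of both genes may be mixed. The hormone gene Rln3, relaxin 3, lay at 5.53, 2.46 and 8.82 CPM and at most at 0.328 CPM in the other 6 libraries. Golim4, a Golgi protein, lay at 0.553, 1.11 and 0.700 CPM, against 5.20, 7.71 and 4.99 CPM in wildtype and 5.25, 3.13 and 6.44 CPM in Eµ-MTCP1, and the RNA helicase Ddx25 at 1.66, 1.84 and 1.54 CPM, against 10.3, 9.01 and 15.6 CPM and 7.88, 6.11 and 6.11 CPM. Both were lowest in Eµ-TCL1. The variable segments Ighv5-9 and Ighv5-9-1 were also lowest there. Against wildtype, Rasal1 was not called without B4376, C1594 or any wildtype library (adjusted p up to 0.13), Mcoln3 not without B4437, C1594, any wildtype library or Z2551 (up to 0.152), and Gm20481 not without B4376, C1594, Z2754, Z2785 or Z2551 (up to 0.145).

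**Figure D5:**
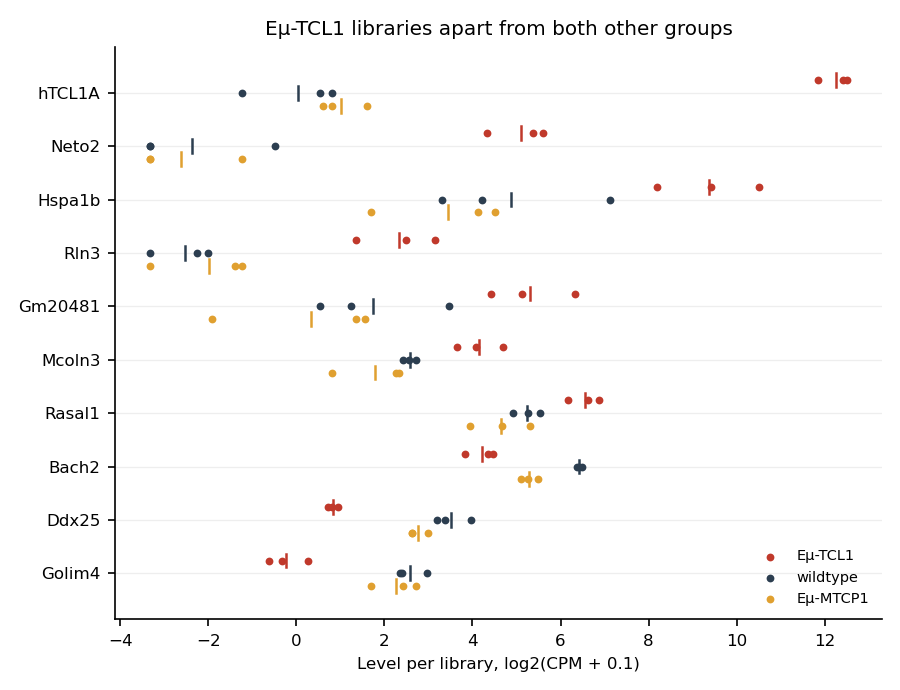
Level of each library, log2(CPM + 0.1), for the genes with Eµ-TCL1 libraries apart from both wildtype and Eµ-MTCP1, immunoglobulin segments left out; points are mice and vertical ticks the means of the log2 values. Of the genes shown, hTCL1A and Neto2, the 2 that passed the adjusted test between the models, lie highest above the other groups, while Bach2, Ddx25 and Golim4 lie below both.

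None of the 4 genes called between the models is a heat shock or interferon-induced gene of the lists used here. In the heat shock list 9 of 21 genes were higher in Eµ-TCL1 than in Eµ-MTCP1 at an unadjusted p under 0.05 and 0 were lower (3.24% and 3.16% of all genes), with a median of 0.57; 0 were called by edgeR and 4 by DESeq2. With 1 library left out this was 6 of 21 (without B4376) to 11 of 21 (without Z2606), with medians of 0.44 to 0.92, and 7 of 21 without C1594, Z2551 or Z2641. Bag3 lay at 24.6, 19.2 and 28.0 CPM against 5.41, 7.24 and 11.1 CPM, and Hsph1, an HSP110, at 110, 62.5 and 66.4 CPM against 24.3, 25.1 and 16.7 CPM. In Eµ-MTCP1 against wildtype 0 of the 21 were called. In the interferon list 16 of 36 were higher at that p, with a median of 1.08 and 0 called by edgeR or 4 by DESeq2, but without B4376 this was 5 of 36, with a median of 0.33, and without Z2641 or Z2551 it was 9 and 10 of 36. The leukemias differed among themselves here: relative to the wildtype mean, the median of the list was 0.87 in B4376, -0.16 in B4437 and -0.74 in C1594. Summed macrophage markers ran in the same order, at 1655, 842 and 408 CPM. So did those of T cells, at 189, 105 and 56.1 CPM, and natural killer cells, at 134, 17.4 and 4.48 CPM. Neutrophil markers did as well, at 286, 154 and 29.8 CPM. Dendritic markers, at 17.4, 14.1 and 41.2 CPM, and erythroid markers, at 28.5, 76.0 and 25.8 CPM, did not. The part of other cells in the interferon values was not tested. Of the 24 NF-kappaB pathway genes 7 were higher and 2 lower than in Eµ-MTCP1 at an unadjusted p under 0.05, with a median of 0.43. With 1 library left out this was 2 to 9 and 0 to 2, and 0 were called by edgeR and 1 by DESeq2 over all 9 libraries. Of the 16 homing receptors 1 was higher and 4 were lower than in Eµ-MTCP1 at that p (0 to 4 and 3 to 5 with 1 library left out), and of the 33 transcription factors 0 were higher and 5 lower (0 to 1 and 3 to 6). Of the B1 genes, Bhlhe41 alone had an unadjusted p under 0.05 in the direct contrast over all 9 libraries (0 to 1 higher and 0 to 3 lower with 1 left out), at 53.2, 33.1 and 24.6 CPM in Eµ-MTCP1, above Eµ-TCL1. Cd274 lay at 30.8, 34.9 and 29.1 CPM in Eµ-MTCP1, below all Eµ-TCL1 libraries (0.88 in the direct contrast, unadjusted p = 0.0022), and Adm at 22.2, 59.9 and 7.76 CPM, also below them.

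The sexes were mixed within both groups. In the deposited gene count table, Xist, transcribed from the inactive X chromosome, had 464 reads in C1594 and 1446 in Z2785 and at most 4 in the other 4 libraries. In the Salmon estimates, the summed level of 4 genes of the Y chromosome was 161, 60.2 and 0 CPM in Eµ-TCL1 and 214, 150 and 0.151 CPM in wildtype. Each group therefore held 1 library with Xist and 2 with Y-linked reads, and 0 of the 4 genes were called by edgeR or DESeq2 or had an unadjusted p under 0.05. Nnt, which differs between C57BL/6 substrains, was read in all libraries, at 52.8, 48.1 and 46.5 CPM against 35.6, 39.9 and 35.2 CPM (0.41 ± 0.24, adjusted p = 0.33).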

How the data were processed

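RNA from splenic B cells of 9 mice was sequenced, 1 library per mouse, and groups were taken from the labelled transgene. Per the labels and methods, the authors aligned reads with HISAT2 2.0.6 to GRCm38.p4 and counted them with featureCounts (Subread), which gave the deposited gene counts. The authors also ran Salmon 1.0.0 on a GENCODE mouse reference to which human TCL1 and MTCP1 sequences had been added, which gave the deposited estimated counts and TPM per transcript used here. Most transcripts of that reference hold coding sequence only, and the protocol names a SMARTer preamplification and Nextera XT as well as a stranded Tru-Seq kit, while use of strand in counting is not given in the sources used here. A table of log2-scale values normalized by the authors with DESeq2 was deposited as well, and served only to assign 4 human transcripts with reads to hTCL1A or hMTCP1 by correlation. Columns that hold the authors' own comparisons were not used, and 0 columns had no sample.

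The estimated counts of all transcripts of a gene were added up and rounded to whole reads. Genes were filtered with filterByExpr, scaled by TMM and fitted over all 9 libraries in 1 model without covariates, in edgeR 4.0.16 under R 4.3.3 (quasi-likelihood F test), with Benjamini-Hochberg adjustment; SE is the fold change over the root of F. DESeq2 1.42.0 was an alternative. Each library held 6447542 to 8033303 reads on genes. The code was tested on simulated data. Named genes were the 15 largest called changes per direction (mean of at least 5 CPM, no overlap), the 10 most abundant per direction, up to 4 members per list, up to 12 by the direct contrast with an unadjusted p under 0.01, the TCL1 family, and sex, strain and marker genes; further called list members, Hspa1a, Hspa5, Hsph1, Arhgef17 and Igkv6-29 were named after their values were seen. The comparison and the gene lists were chosen with earlier results of these data known. Alternatives were other scaling, filters, references, gene sets and tools, and each library left out. Promoters came from RefSeq (GRCm38.p6). Results for some of the genes that met these rules are not reported here.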

Additional observations from a re-analysis of the deposited data

Results flagged for a closer look

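In 4 genes the effect against the shared wildtype libraries differed between both models by the direct contrast of edgeR after adjustment. The values are log2 fold changes of Eµ-TCL1 minus Eµ-MTCP1: 11.28 for hTCL1A, -12.30 for hMTCP1, 8.23 for Neto2 and -8.46 for Arhgef17. The human genes are the transgenes that define the groups. Arhgef17 lay at 0.277, 0.123 and 0 CPM in Eµ-TCL1, at 0, 0 and 0.453 CPM in wildtype and at 45.8, 62.5 and 50.9 CPM in Eµ-MTCP1, which all descend from 1 founder (direct adjusted p = 0.00135). The study maps the transgene of that founder line to the chromosome region that holds Arhgef17. Whether the insertion site plays a part was not tested. Groups of 3 libraries are too small for the test of single samples that stand apart.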

How the results depend on the processing

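With DESeq2, 1691 genes were called between Eµ-TCL1 and wildtype, and 1019 of the 1023 edgeR calls were among them. Fits that left out 1 library called 515 to 1237, the lowest being 515 without wildtype Z2754, 546 without wildtype Z2755 and 656 without Eµ-TCL1 C1594. With the study's thresholds, 258 genes passed when immunoglobulin genes were left out of the fit, against 255 outside these genes in the main fit. With 1 library left out 272 to 427 genes passed, against 389. Between the models, against 4 calls, DESeq2 called 71, no filter on low counts 10 and the standard Salmon reference 7, and fits without 1 library 4 to 7; the cause of these shifts was not tested. Of the 1023 calls, 1 changed sign with the gene count table, 3 with the standard reference and 2 with transcript length offsets. All 125 called genes chosen by the naming rules kept their sign in the 18 alternatives, and 69 were called in each that tested them. Genes named after their values were seen, such as Asb2, Plac8, Itgb3 and Zeb2, are not in these counts. The direct call of Neto2 was lost with the gene count table, the standard reference and length offsets. Of 971 list medians under alternatives, 72 moved by more than the SD over mice. No paired analysis was possible because the labels give mouse identities and no replicate numbers that groups share. Genes near the floor of 3 reads have fold changes that depend on the prior count.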

Other observations

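Genes without protein-coding transcripts are not held by the coding reference and were read from the gene count table, with the same edgeR fit and adjustment over all genes of that table. Of 2671 such genes tested, 149 were called (5.58%), 103 higher and 46 lower in Eµ-TCL1, while 10% of all 14567 genes tested there were called, 5.83% higher and 4.19% lower; of 1002 long noncoding genes 68 were called (6.79%), 52 higher and 16 lower. The lincRNA AI427809 lay at 68.7, 41.4 and 105 CPM against 0.490, 1.10 and 0.627 CPM in wildtype (6.57 ± 0.52, adjusted p = 0.000107), and at 71.6, 144 and 70.5 CPM in Eµ-MTCP1. The lincRNA A530010L16Rik lay at 41.2, 39.0 and 28.0 CPM against 1.55, 1.41 and 1.15 CPM (4.70 ± 0.28, adjusted p = 7.5e-05). Both were high in each leukemia and low in each wildtype library. Gm16028, annotated as antisense, lay at 19.4, 11.6 and 5.68 CPM against 0, 0.0783 and 0 CPM (8.23 ± 0.84); the protocol names both a preamplification kit that does not mark strand and a stranded library kit, and whether counting used strand is not stated, so its reads and those of the gene opposite may be mixed. BE692007 fell, at 13.3, 13.3 and 13.7 CPM against 61.3, 35.5 and 33.0 CPM (-1.69 ± 0.33, adjusted p = 0.0092).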
